A study of Mus musculus with 48 samples.

Results

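The 39 protein-coding genes of the Hox clusters were followed in the nascent RNA of mouse embryonic stem cells, in 8 libraries that fall into 4 groups. The members were the rows of the gene count table named Hox, a cluster letter from a to d and a number, which gave 39 of 55376 rows. Cluster A held 11 of them (chromosome 6, minus strand), cluster B 10 (chr11:96194316-96368256, mm10, plus strand), cluster C 9 (chr15:102921103-103036852, plus strand) and cluster D 9 (chr2:74668310-74765142, plus strand). All cells were of the line TCF2.2, labelled as C57BL/6 and kept in 2i medium, and all took up 500 µM 4-thiouridine for 5 min so that RNA made in that time could be isolated and sequenced. The groups, each of 2 biological duplicates per the design text, were cells under BRM014 at 10 µM for 3 h, cells under DMSO alone for 3 h, cells carrying a lentiviral shRNA against Chd4 and cells carrying a scrambled shRNA, the last 2 groups at 24 h in 1.5 µg/mL puromycin. BRM014 inhibits the ATPases of the SWI/SNF chromatin remodelling complexes, and Chd4 is the ATPase of the NuRD complex. The labels give a single cell line, so the duplicates measure its spread alone, and ERCC RNAs were added to every library by cell number.

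Hox genes encode homeodomain transcription factors that give cells their position along the body axis. Within a cluster they lie in the order in which they come on, from paralog group 1 at one end to group 13 at the other, and genes of the same group in different clusters are the closest relatives. In embryonic stem cells the clusters are held silent, with Polycomb proteins over CpG-rich promoters that also carry the Trithorax mark of potential activity, and retinoic acid and Cdx factors are known to open them in differentiating cells.

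The sequence before the start of the gene was at hand for 22 of the 39 members, in the RefSeq table of GRCm38.p6, and among the other 17 were Hoxa4, Hoxb2, Hoxb3, Hoxb5, Hoxb6, Hoxb7, Hoxb9, Hoxb13, Hoxc5, Hoxc6 and Hoxc8 to Hoxc13. The 3 windows of 250 bases shown were picked among those that overlap no gene. They are the one with the highest nascent RNA level, the one with the lowest level and the one with the most CpG. Their genes stood at 3.03, 0.692 and 1.34 times the level of the silent genes defined below, which does not reach either end of the range of all members. Capitals mark each CpG, and the sequences read 5′ to 3′ on the strand of the gene.
Hoxa2 (chr6:52164832-52165081, minus strand): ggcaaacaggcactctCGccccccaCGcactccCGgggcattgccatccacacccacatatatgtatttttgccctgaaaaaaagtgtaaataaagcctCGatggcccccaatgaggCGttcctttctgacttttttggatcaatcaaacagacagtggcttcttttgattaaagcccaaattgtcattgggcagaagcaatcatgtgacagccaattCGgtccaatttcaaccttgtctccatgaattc
Hoxd11 (chr2:74679308-74679557, plus strand): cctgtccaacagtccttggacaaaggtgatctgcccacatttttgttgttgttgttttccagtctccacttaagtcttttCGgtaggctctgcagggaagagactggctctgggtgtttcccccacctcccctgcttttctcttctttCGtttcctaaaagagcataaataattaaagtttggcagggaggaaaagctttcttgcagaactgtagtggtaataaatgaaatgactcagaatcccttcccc
Hoxa13 (chr6:52260881-52261130, minus strand): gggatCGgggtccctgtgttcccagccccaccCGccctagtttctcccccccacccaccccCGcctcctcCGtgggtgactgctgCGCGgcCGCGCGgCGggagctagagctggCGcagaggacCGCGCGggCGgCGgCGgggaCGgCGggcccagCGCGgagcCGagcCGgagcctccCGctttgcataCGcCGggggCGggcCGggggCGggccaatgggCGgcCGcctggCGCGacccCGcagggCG
The Hoxa2 window held 6 CpG, the Hoxd11 window 2 and the Hoxa13 window 35. Another window of Hoxd11, which overlaps its own row and is not printed, held 20. Over the 24 windows of the 22 members the median was 12.5 CpG in 250 bases and the range was 2 to 35, and 15 of the 24 (62.5%) held at least 10. The median was 6 over 32851 windows of all genes (37.8% with at least 10), 16 over 5586 windows of expressed genes and 1 over 1266 windows of the silent genes defined below. These 3 sets leave out the genes of 1 chromosome, which holds no Hox cluster. Hox windows thus lay between all genes and expressed genes in CpG, and far above the silent genes they are measured against. The letters TATAAA, the core of a TATA box, occurred on either strand in 4 of the 24 windows (12.4% of all windows), GGGCGG, the core of an Sp1 site, in 10 (32.7%), and TGATNNAT, the joint site of Pbx and Hox proteins, in 4 (7.68%). AGGTCA, a nuclear receptor half-site, occurred in 6 (14.0%). A TGATNNAT and a TATAAA can share bases, and each was counted by itself. Silent genes held TATAAA in 37.8% and TGATNNAT in 25.9% of their windows, a difference from the Hox windows that was not tested. Across the 22 members, with 1 window per gene, the number of CpG and the nascent RNA level had a Spearman rho of 0.08, given as a description over genes that share their libraries.

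The clusters also carry microRNA genes, whose mature products are shown because they fall into 2 families by seed (bases 2 to 8, in capitals, from the same RefSeq release).
miR-10a-5p (Mir10a, cluster B): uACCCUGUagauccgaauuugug
miR-10b-5p (Mir10b, cluster D): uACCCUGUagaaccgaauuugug
miR-196a-5p (Mir196a-1, cluster B, and Mir196a-2, cluster C): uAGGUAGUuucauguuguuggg
miR-196b-5p (Mir196b, cluster A): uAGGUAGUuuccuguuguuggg
The hairpin row of Mir196a-1 (102 bases) had 5 and 6 counts with DMSO, 2 and 5 with BRM014, 8 and 4 with the scrambled shRNA and 2 and 6 under the Chd4 shRNA label. Mir10a, Mir10b, Mir196a-2, Mir196b and Mir615 had between 0 and 3 counts in each library. None of these hairpins passed the filter on low counts, and their counts say nothing of the mature microRNA.

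Because most Hox counts were low, each gene was set against silent genes of the same library. These were the 1434 olfactory and vomeronasal receptor genes (Olfr, Vmn1r and Vmn2r), which serve the sense of smell, and the level of a Hox gene is its counts per kb of exon divided by theirs. A level of 1 is therefore that of a silent gene. The silent genes had 2.63 and 2.66 counts per kb with DMSO (r1 and r2, by the replicate numbers of the table), 1.66 and 2.64 with BRM014 (r1 and r2), 1.32 and 1.84 with the scrambled shRNA (r1 and r3) and 6.78 and 7.21 in r1 and r4 of the group labelled Chd4 shRNA, from here on the Chd4-labelled pair. The Chd4-labelled pair stood apart from the other 6 in this, while their gene totals, 7461362 and 6982354 counts, were below the 11298835 to 17128981 of the others. What gives silent genes their counts, and why this group has more, was not tested. Relative to expressed genes, Chd4 itself was not lower in the libraries that carry its shRNA. It had 730 and 760 counts there and 806 and 618 with the scrambled shRNA. This is 0.57 ± 0.15 higher in log2 (SE, edgeR adjusted p 0.00115), on a scale where 74.8% of all genes tested were called higher. Smarca4 was higher by a similar amount in the same test (0.59 ± 0.16, adjusted p 0.00111), so the value is not particular to Chd4. Set against silent genes, log2 values in this comparison shift by -2.64, so the direction for Chd4 depends on the reference. The counts are of RNA made within 5 min, and Chd4 protein or RNA made earlier was not measured. As to the cell type, all 10 pluripotency markers were well above silent genes, with a median of 182 times their level, and 0 of 10 fibroblast markers reached 2 times. In the Chd4-labelled pair all 10 pluripotency markers were lower than with the scrambled shRNA on both scales used below, as were 5.52% of all genes tested.

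Hox genes as a group lay close to silent genes. The median level of the 39 members, over the mean of all 8 libraries, was 1.24, and single members ran from 0.538 (Hoxd3) to 15.3 (Hoxc13). At least 2 times the silent level was reached by 6 of 39 (15.4%), against 14 of the 1434 silent genes themselves (0.976%) and 43.8% of all genes of at least 0.5 kb. Above the 99th percentile of single silent genes lay 6 members, among them Hoxc13, Hoxc12, Hoxa2, Hoxb9 and Hoxd9. A further 7 lay between that and the 95th percentile, at a level of 1.49, namely Hoxc4, Hoxa6, Hoxa7, Hoxd8, Hoxa4, Hoxa10 and Hoxc11, and 26 of 39 were not above the 95th. Down this order the range over 8 libraries overlapped from each gene to the next, so neighbours are not resolved, except that Hoxc13 was above Hoxc12, and Hoxa2 above Hoxb9, in 8 of 8 libraries. In bulk RNA fewer cells with a transcript and less RNA per cell cannot be told apart.

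**Figure D1:**
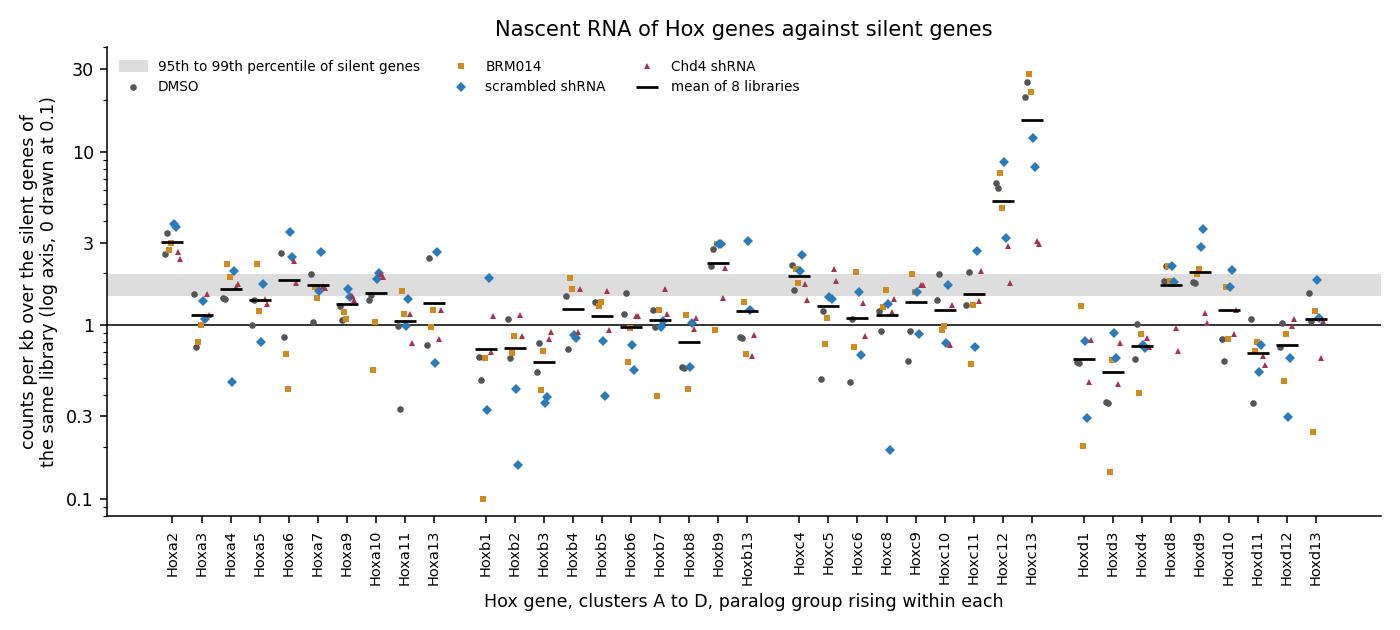
Level of 38 Hox genes, as counts per kb of exon over those of the silent genes of the same library (log axis, a level of 0 drawn at 0.1), with 1 symbol per library, a bar at the mean of 8 libraries and a grey band from the 95th to the 99th percentile of single silent genes. Hoxc13 stands at 20.7 to 28.2 with DMSO and BRM014 and at 2.93 and 3.06 in the Chd4-labelled pair, and 10 members have a mean below 1.

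The clusters differed in level. The median over members was 1.53 in cluster A, 1.37 in cluster C, 1.03 in cluster B and 0.773 in cluster D, and the 10 members with a mean below 1 were 5 of cluster B (Hoxb1, Hoxb2, Hoxb3, Hoxb6 and Hoxb8) and 5 of cluster D (Hoxd1, Hoxd3, Hoxd4, Hoxd11 and Hoxd12). Summed over its members, cluster A stood at 1.58 ± 0.0644 times the silent level with DMSO, 1.69 ± 0.152 with BRM014, 2.02 ± 0.0889 with the scrambled shRNA and 1.52 ± 0.141 in the Chd4-labelled pair (SD, n = 2 each). Cluster B stayed between 0.869 and 1.17 in all 8 libraries and cluster D between 0.764 and 1.21. Cluster A was thus above clusters B and D in each of the 8 libraries. By position along the cluster, the median level was 0.733 over the 8 members of paralog groups 1 to 3, 1.25 over the 15 of groups 4 to 8 and 1.33 over the 16 of groups 9 to 13. The anterior genes differed by cluster, with Hoxa2 at 3.03 and its paralog Hoxb2 at 0.738. No test was made of these differences between clusters or positions, since members are not replicates.

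**Figure D2:**
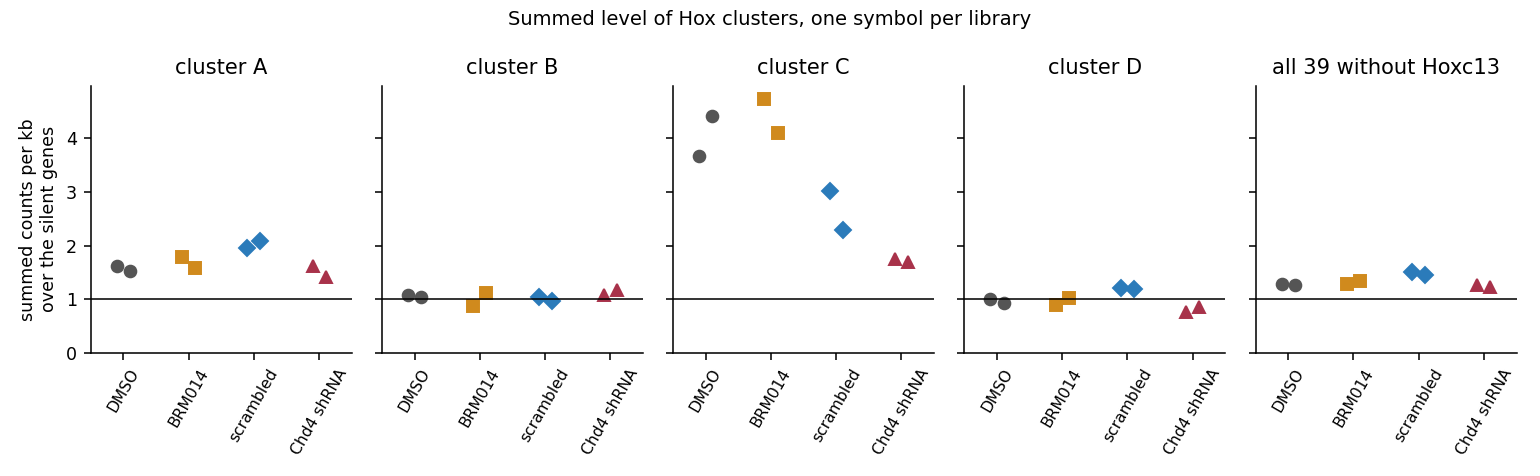
Summed counts per kb of each Hox cluster, and of all members without Hoxc13, over those of the silent genes (linear axis, line at 1), with 1 symbol per library in each of the 4 groups. Clusters B and D lie around 1 in every group, cluster A between 1.42 and 2.08, and cluster C between 1.69 and 4.73.

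Cluster C rested on its posterior end. Hoxc13 (chr15:102921103-102928814), a gene of hair and nail development, had 134 and 165 counts with DMSO, 115 and 144 with BRM014, 39 and 37 with the scrambled shRNA and 51 and 52 in the Chd4-labelled pair. Its level over silent genes was 20.7 and 25.2 with DMSO, 28.2 and 22.1 with BRM014, 12.0 and 8.19 with the scrambled shRNA and 3.06 and 2.93 in the Chd4-labelled pair. The DMSO and BRM014 libraries overlapped, the scrambled libraries lay below them, and the Chd4-labelled pair lay lowest on this measure. Hoxc13 gave 28.3% to 34.9% of all Hox counts with DMSO and BRM014, 16.3% and 12.1% with the scrambled shRNA and 5.62% and 5.50% in the Chd4-labelled pair. Its row overlaps no other gene of the table. Next to it, Hoxc12 (chr15:102936757-102938609) had 18 and 17 counts with DMSO, 13 and 13 with BRM014, 12 and 6 with the scrambled shRNA and 20 and 13 in the Chd4-labelled pair. Its level was 6.63 and 6.20, then 7.60 and 4.77, then 8.79 and 3.17, then 2.86 and 1.75, below Hoxc13 in each of the 8 libraries. The other 7 members of cluster C had mean levels from 1.10 (Hoxc6) to 1.93 (Hoxc4).

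In cluster A, Hoxa2 (chr6:52162417-52164831), which patterns the hindbrain and the neural crest of the branchial arches and whose promoter is printed above, had 12 and 16 counts with DMSO, 8 and 14 with BRM014, 9 and 12 with the scrambled shRNA and 32 and 31 in the Chd4-labelled pair. Its level was 2.42 to 3.83, above the 99th percentile of silent genes in 8 of 8 libraries, with the scrambled libraries highest at 3.83 and 3.68 and both BRM014 libraries between the DMSO libraries. Hoxa3 to Hoxa13 had mean levels from 1.05 (Hoxa11) to 1.83 (Hoxa6).

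Clusters B and D had a single member each with a mean level above the 99th percentile of silent genes, Hoxb9 and Hoxd9. By single libraries, as given for Hoxa2, Hoxb9 was above that percentile in 5 of 8 and Hoxd9 in 1 of 8. Hoxb9, a gene of the thoracic region, had 15 and 19 counts with DMSO, 4 and 20 with BRM014, 10 and 14 with the scrambled shRNA and 25 and 40 in the Chd4-labelled pair, and its level ran from 0.936 to 2.96. The lowest value was that of BRM014 r1, and the other BRM014 library was at 2.94, so that group spans nearly the whole range. Hoxb4, a gene of neck and blood development, had 10 and 5, 8 and 11, 3 and 4, and 16 and 30 counts, with levels of 0.732 to 1.88. Hoxd9, expressed in the posterior trunk and limb, had 10 and 10, 7 and 12, 8 and 14, and 17 and 16 counts. Its level was 1.78 and 1.76 with DMSO, 1.97 and 2.12 with BRM014, 2.83 and 3.57 with the scrambled shRNA and 1.17 and 1.04 in the Chd4-labelled pair, and these 4 groups did not overlap. Hoxd8 had 13 and 16, 10 and 13, 8 and 9, and 18 and 14 counts, with levels of 1.79 to 2.20 in the first 3 groups and of 0.968 and 0.708 in the last. Hoxb1 was the only member with 0 counts in a library, BRM014 r1, where a count of 0 allows up to 0.778 times the silent level (3 counts, counting error only).

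All 39 members passed edgeR's filter on low counts, but 38 reached 10 counts in both libraries labelled Chd4 shRNA and only 16 did so in at least 2 of the other 6 libraries. Changes were tested on 2 scales, one relative to the 8272 expressed genes (at least 10 times the silent level) and one relative to the silent genes, and a member was taken as changed only where both gave the same direction at an adjusted p under 0.05. The first scale asks whether a gene moved against the transcription of active genes and the second whether it moved away from the silent level. Under the Chd4 shRNA label, all 444 genes higher relative to silent genes and all 1951 lower relative to expressed genes were so on both scales. With BRM014 this held for all 65 higher and 144 lower relative to silent genes. In these comparisons a call on both scales is therefore that of a single scale, and the other adds no further support. Of the 39 members, 16 overlap no other row, 11 overlap another Hox row, and 14 overlap a gene on the opposite strand. The strand setting of the counting is not given in the sources used here, so reads of such pairs cannot be told apart.

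The comparison of BRM014 with DMSO asks whether Hox transcription changed after 3 h without SWI/SNF activity. No member was higher and no member was lower on either scale by edgeR, where 0.725% of all 35319 genes tested were called higher and 2.10% lower relative to expressed genes, and 0.184% and 0.408% on both scales. At an unadjusted p under 0.05 there were 0 members relative to expressed genes and 1 higher relative to silent genes (Hoxc9), and DESeq2 called 0. The median log2 fold change of the 39 was -0.15 relative to expressed genes and -0.02 relative to silent genes, beside -0.13 and -0.001 for the 1327 silent genes tested and -0.10 and 0.04 for all genes. Hoxc13, the member with the most counts, differed by -0.03 ± 0.15 in log2 relative to expressed genes (SE, with 2 libraries on each side, edgeR adjusted p 0.965), with a 95% interval from -0.33 to 0.27. On that scale a change of this gene by 1.5 times in either direction lies outside the interval, while for the others the interval is wider. Relative to silent genes Hoxc13 stood at 0.12 ± 0.27, and with TMM among the ERCC RNAs at 0.093 ± 0.56, and with these errors a rise by 1.5 times is not outside the range.

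The smallest p with BRM014 belonged to Hoxc9, Hoxa10 and Hoxa6. For Hoxc9, 8 and 10 counts with BRM014 stood against 4 and 6 in the DMSO libraries, with a log2 fold change of 0.99 ± 0.52 (adjusted p 0.410). Hoxa10 had 3 and 9 against 12 and 13 (-0.87 ± 0.48, adjusted p 0.430), and Hoxa6 had 1 and 1 against 6 and 2 (-1.68 ± 0.93, adjusted p 0.440). Under the shRNAs, scrambled first, Hoxc9 had 5, 4, 28 and 30 counts and Hoxa6 4, 4, 14 and 11. With so few counts only large changes could be seen in these genes, so the absence of a call does not show that their transcription was the same.

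**Figure D3:**
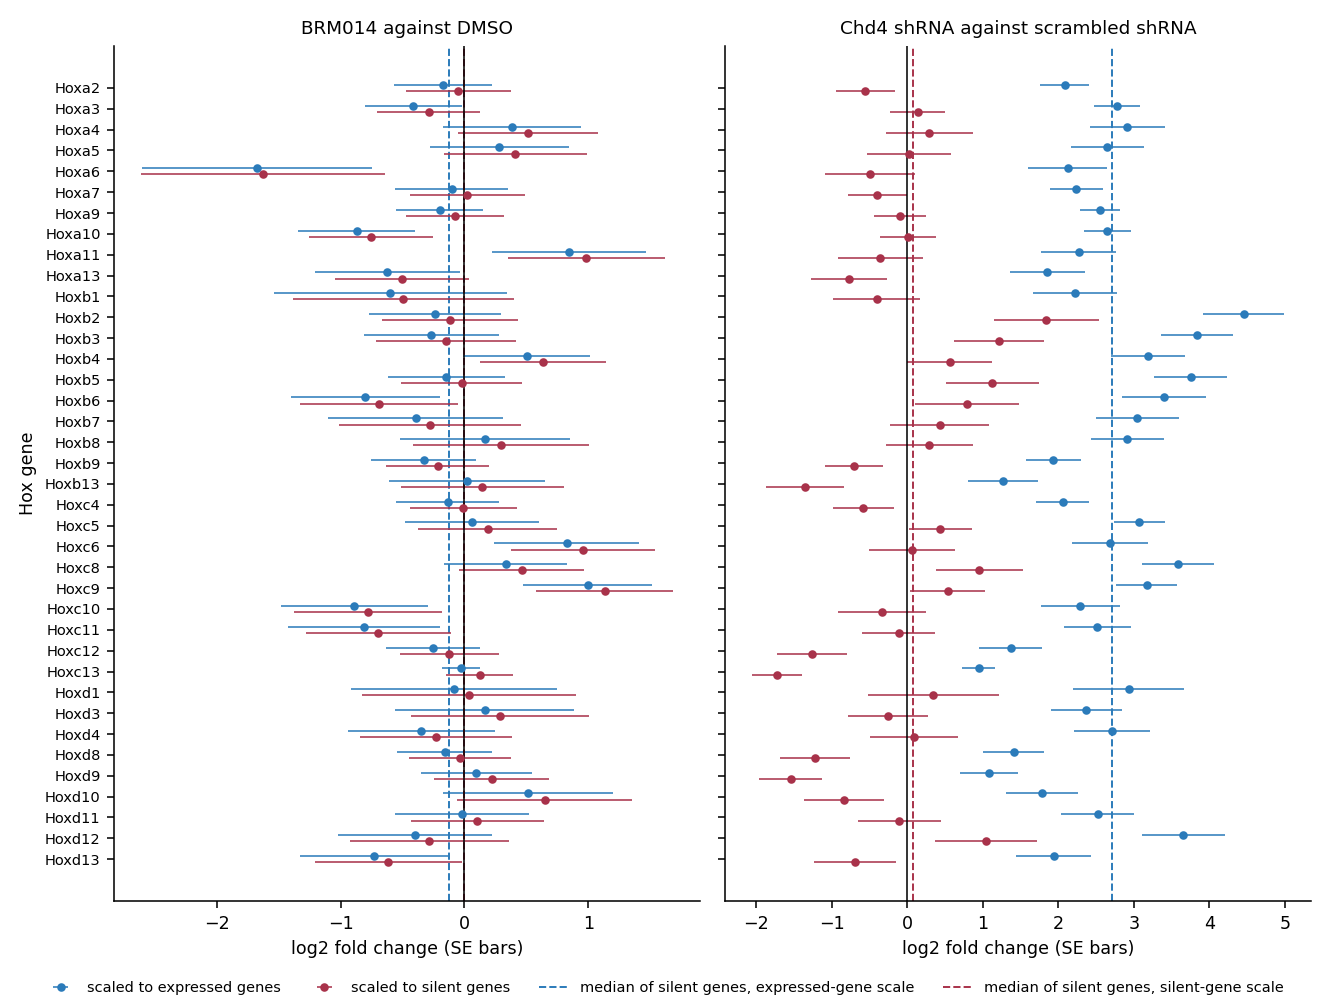
Log2 fold change of 38 Hox genes with its SE (edgeR, 2 libraries against 2) in both comparisons, relative to expressed genes in blue and to silent genes in red, with dashed lines at the median of the silent genes on each scale. With BRM014 the members scatter around 0 on both scales, and in the Chd4-labelled pair the blue points scatter around the silent genes at 2.71 and the red points around 0.08.

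The comparison of the Chd4-labelled pair with the scrambled shRNA asks the same of NuRD. Relative to expressed genes, 38 of 39 members were higher and 0 lower by edgeR, in a comparison where 74.8% of all genes were called higher and 5.52% lower, and where 1325 of the 1327 silent genes were higher. Since only 16 members reached 10 counts in at least 2 of the other 6 libraries, and the rest could enter the test through the high counts of that group, the 38 are a description and not support for a rise. With library sizes balanced over all tested genes (TMM) in place of expressed genes, 11434 of all genes were higher and 11155 lower, against 26411 and 1951, and 21 Hox genes were higher. The median log2 fold change was 2.52 over the Hox genes, 2.71 over the silent genes and 1.74 over all genes tested. The summed CPM of the 39 was 122 and 135 in the Chd4-labelled pair against 19.9 and 27.1 with the scrambled shRNA. Over the same libraries the sum of the 39 members was 1.30 and 1.27 times the silent level against 1.75 and 1.62, so that against silent genes the Hox counts were lower in this group, without overlap. Of the 35319 genes tested, 25766 had a log2 fold change below 0 relative to silent genes in this comparison. Without Hoxc13 the sum was 1.26 and 1.23 against 1.50 and 1.46, beside 1.29 and 1.27 with DMSO and 1.29 and 1.34 with BRM014. Without that gene it was thus the scrambled libraries that stood apart, and the Chd4-labelled pair lay close to the DMSO libraries.

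Relative to silent genes, 1 member was called higher (1.26% of all genes) and 6 lower (48.1% of all genes, among them 12 of the 1327 silent genes). Of the silent genes 31 (2.34%) were called higher, beside 1 of 39 Hox genes (2.56%). Among the 6 were Hoxc13 (-1.72 ± 0.33, adjusted p 2.87e-06), Hoxd9 (-1.54 ± 0.42), Hoxb13 (-1.35 ± 0.51), Hoxc12 (-1.26 ± 0.47) and Hoxd8 (-1.22 ± 0.46). Of the 6, 5 are among the 10 members with the highest level over the 8 libraries. On this scale the median was -0.10 over the Hox genes, 0.08 over the silent genes and -0.89 over all genes. The call for Hoxc12 ended without scrambled r1 (adjusted p 0.661) and without Chd4-labelled r4 (0.119), and DESeq2 called 3 members lower in place of 6.

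The member called higher on both scales was Hoxb2 (chr11:96350525-96354012), a hindbrain gene, where 1.26% of all genes and 2.34% of silent genes were called so and 5.52% of all genes were lower on both. It reached 10 counts in both Chd4-labelled libraries and in 1 of the other 6, so it was tested through the group where it is high, and the call is a description. Hoxb2 had 27 and 22 counts in the Chd4-labelled pair, where silent genes of its length would give 23.6 and 25.1, and 2 and 1 with the scrambled shRNA, where they would give 4.62 and 6.40. Its log2 fold change was 4.45 ± 0.54 relative to expressed genes (adjusted p 1.18e-08 by edgeR) and 1.84 ± 0.70 relative to silent genes (adjusted p 0.0200). The ratio of its summed counts relative to silent genes, 49 against 3, was 3.69, with an exact 95% interval of 1.19 to 18.5 for counting error alone. Hoxb2 was thus at the silent level in one group and below it in the other, and it had 10 and 6 counts with DMSO against an expectation of 9.18 and 9.28, and 4 and 8 with BRM014 against 5.79 and 9.22. The call ended by DESeq2 (adjusted p 0.129), without scrambled r3 (0.293) and without Chd4-labelled r1 (0.0717). Near it, Hoxb3 (24 and 28 counts against 2 and 3) and Hoxb5 (30 and 19 against 3 and 2) were at 1.21 ± 0.59 and 1.13 ± 0.61 relative to silent genes, with adjusted p of 0.0859 and 0.126.

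The smallest p relative to expressed genes belonged to Hoxa9, Hoxa3, Hoxc5 and Hoxa10, which are among the 8 members with the most exon bases. Hoxa9 had 56 and 56 counts in the Chd4-labelled pair against 12 and 15 with the scrambled shRNA (2.55 ± 0.27, adjusted p 6.94e-10), after 19 and 16 with DMSO and 11 and 16 with BRM014. Hoxa3 had 62 and 50 against 11 and 12 (2.78 ± 0.30), Hoxc5 44 and 40 against 6 and 8 (3.07 ± 0.34), and Hoxa10 44 and 45 against 8 and 12 (2.65 ± 0.31). With DMSO and BRM014 Hoxa3 had 24, 12, 8 and 16 counts and Hoxc5 4, 10, 4 and 9. In counts the Chd4-labelled pair lay above the other 6 libraries for each of the 4 genes. Silent genes did the same in counts per kb, with 6.78 and 7.21 against 1.32 to 2.66. Relative to silent genes the 4 Hox genes stood at -0.09 ± 0.34, 0.14 ± 0.37, 0.44 ± 0.42 and 0.01 ± 0.37, and none was called. The row of Hoxa3 overlaps those of Hoxa4, Hoxa5 and Hoxa6, and the row of Hoxc5 overlaps those of Hoxc6, Hoxc8, Hoxc9 and Hoxc10, so reads of these genes may be shared.

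**Figure D4:**
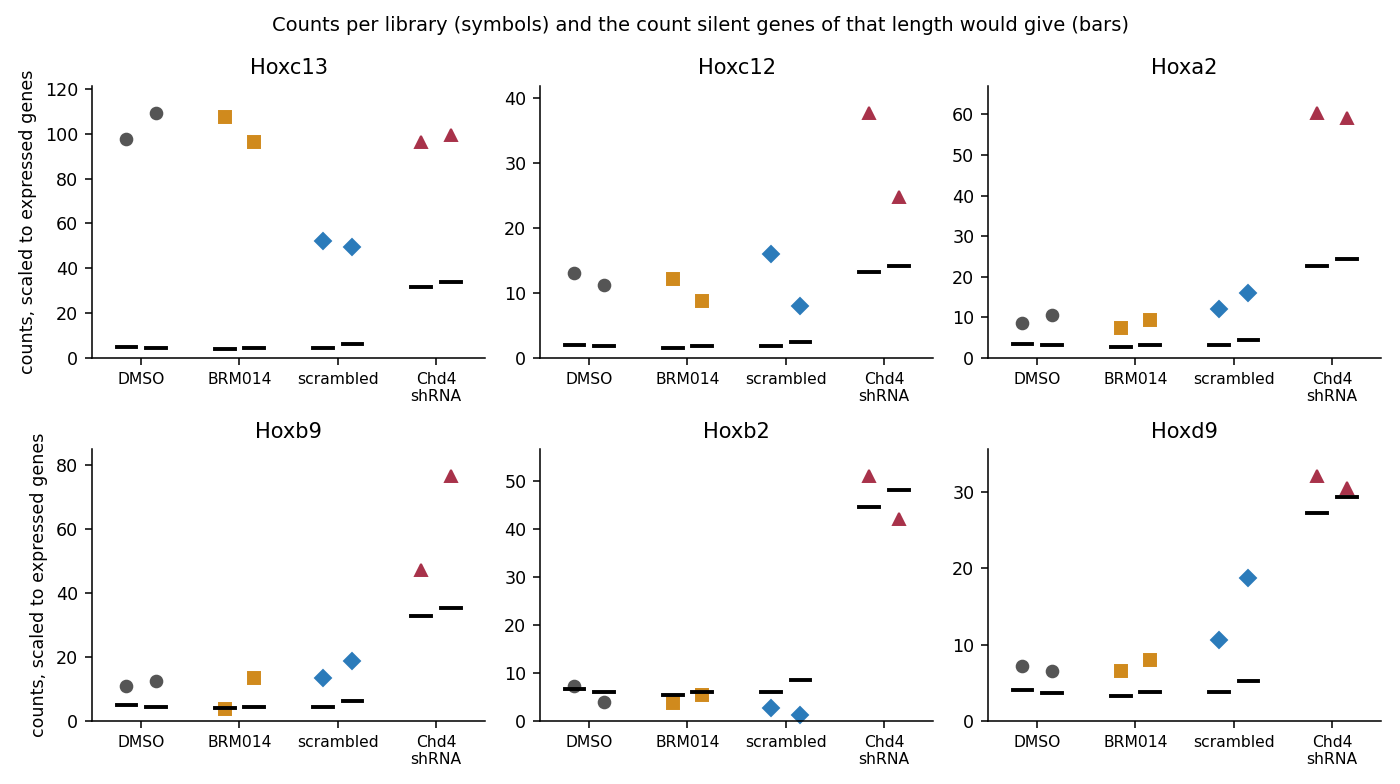
Counts of 6 Hox genes in each library, scaled to expressed genes (linear axes, 1 symbol per library), with a bar at the count that silent genes of the same length would give in that library. Hoxc13 lies above its bars in all 8 libraries and is lowest with the scrambled shRNA, while Hoxb2 and Hoxd9 lie near the bars in the Chd4-labelled pair.

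With the silent level of each library subtracted from the counts, 15 members kept enough counts for a test, and 8 of them were higher and 0 lower in the Chd4-labelled pair, where 32.6% of the 21367 genes tested were higher and 11.1% lower. The 8 were Hoxa2, Hoxa3, Hoxa4, Hoxa9 and Hoxa10 of cluster A and Hoxc5, Hoxc9 and Hoxc13 of cluster C, and none were of clusters B or D, from which Hoxb9 alone was tested. Members could enter this test through the high counts of that group alone, so their count is a description and not support for a rise. With BRM014 0 of the 15 were called, where 0.454% of genes were higher and 1.35% lower (unadjusted p under 0.05 for Hoxa10, Hoxc9 and Hoxa3). Hoxc5 gave a log2 fold change of 4.04 ± 0.93 (adjusted p 0.00368), Hoxa10 2.82 ± 0.72 (adjusted p 0.00680), Hoxc9 4.20 ± 1.13 and Hoxa2 1.98 ± 0.57. Hoxa2 had 32 and 31 counts where 12.0 and 12.8 would be the silent level, and with the scrambled shRNA 9 and 12 where it would be 2.35 and 3.26. These excesses hold only as far as the silent level of long exons is proportional to their length, which was not tested.

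Hoxc13 took a different order of groups on each scale. Scaled to expressed genes its counts were 97.4 and 109.2 with DMSO, 107.6 and 96.4 with BRM014, 52.0 and 49.5 with the scrambled shRNA and 96.2 and 99.3 in the Chd4-labelled pair. The scrambled libraries lay far below the others, and the other 3 groups overlapped. In the Chd4-labelled pair it was 1.92-fold higher than with the scrambled shRNA, or 0.94 ± 0.22 in log2 (SE, edgeR adjusted p 3.13e-04), and after subtraction of the silent level at 0.74 ± 0.25 (adjusted p 0.0278). With TMM over all tested genes the direction turned (-0.39, adjusted p 0.109), and with TMM among the ERCC RNAs the call ended (1.14, adjusted p 0.086). Relative to silent genes it was lower, as given above, so it was not taken as changed.

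The 2 control groups were set against each other for this gene, in a comparison added after its values were seen. The scrambled libraries differ from the DMSO libraries in virus, puromycin, vehicle and time, which cannot be told apart, and this comparison shares its samples with the other 2. Hoxc13 was lower with the scrambled shRNA on both scales, at 0.491 of its DMSO level relative to expressed genes (-1.03 ± 0.19, edgeR adjusted p 9.23e-04) and 0.433 relative to silent genes (-1.21 ± 0.30, adjusted p 0.0302). It was the 1 member of 39 called, with 0 higher, where 0.368% of all genes were lower and 0.167% higher on both scales. The shares were 1.24% lower and 2.56% higher relative to expressed genes and 0.371% and 0.176% relative to silent genes. After subtraction of the silent level the log2 fold change was -1.12 ± 0.21 (adjusted p 0.00927). The call relative to silent genes ended without DMSO r1 (adjusted p 0.0660), DMSO r2 (0.396) or scrambled r3 (0.151), and with ERCC totals as library sizes the call relative to expressed genes ended too (-1.24, -0.60 and -0.63 under 3 ways of taking them, adjusted p 1, 0.311 and 0.412). Of the other members the smallest p relative to expressed genes belonged to Hoxd9 (1.07 ± 0.44, adjusted p 0.187), Hoxb13 (adjusted p 0.189) and Hoxd10 (1.55 ± 0.66, adjusted p 0.211). Hoxb13 had 9 and 5 counts against 5 and 5 with DMSO, and Hoxd10 had 4 and 7 against 4 and 3.

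The noncoding genes within the clusters included rows with more signal than most Hox genes. Of 18 on the list, 17 were in the table and Hotairm2 was not matched, and 8 of the 17 reached 2 times the silent level, 5 of them microRNA hairpins with the few counts given above. Hotairm1 stood at 10.9 times, Halr1 at 9.07 and Hoxaas3 at 4.75, while Hotair and Hottip, RNAs of the posterior C and A clusters, stood at 1.60 and 1.30. Hotairm1 had 37 and 38 counts with DMSO, 34 and 32 with BRM014, 16 and 19 with the scrambled shRNA and 22 and 18 in the Chd4-labelled pair. Halr1 had 15 and 14 counts with DMSO, 7 and 14 with BRM014, 30 and 32 with the scrambled shRNA and 38 and 36 in the Chd4-labelled pair. It was the 1 row of 11 tested that was higher on both scales with the scrambled shRNA against DMSO (0.167% of all genes), opposite to Hoxc13. The level of Halr1 over silent genes was 5.81 and 5.36 with DMSO and 4.30 and 5.40 with BRM014. It was 23.1 and 17.8 with the scrambled shRNA and 5.71 and 5.09 in the Chd4-labelled pair, so the scrambled libraries stood apart. Between the 2 shRNA groups Halr1 was higher relative to expressed genes (0.76, edgeR adjusted p 0.00585) and lower relative to silent genes (-1.89, adjusted p 2.69e-08). Of all genes, 74.8% and 48.1% were so called. With BRM014 0 of 11 were called, and in the Chd4-labelled pair 10 of 11 were higher relative to expressed genes (74.8% of all genes) and 0 on both scales (1.26%). Hoxaas3, which lies on the strand opposite to Hoxa3 to Hoxa7, had 48 and 42, 36 and 57, 17 and 16, and 33 and 43 counts.

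Genes next to the clusters were mostly active. Among 15 neighbours, 12 reached 2 times the silent level, with a median of 8.34, and 0 were called with BRM014. In the Chd4-labelled pair 3 were lower on both scales (5.52% of all genes) and 0 were higher (1.26%). The 3 were Hibadh beside cluster A (-0.34 relative to expressed genes, edgeR adjusted p 0.0416), Calcoco2 beside cluster B (-1.17, adjusted p 4.04e-07) and Mtx2 beside cluster D (-1.19, adjusted p 1.27e-06). Evx1 and Evx2, the homeobox genes at the posterior ends of clusters A and D, stood at 0.705 and 0.814 times the silent level, like the low Hox genes. Ttll6, near cluster B, was the 1 neighbour higher on both scales with the scrambled shRNA against DMSO (0.167% of all genes), with 105 and 91 counts against 68 and 77.

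Of the partners of Hox proteins on DNA, the Pbx, Meis and Pknox genes, 4 of 9 reached 2 times the silent level: Pbx2 at 7.31, Pbx3 at 4.27, Pbx4 at 11.1 and Pknox1 at 5.98. Meis1, Meis2, Meis3 and Pknox2 stood at 1.11 to 1.79. None of the 9 was called with BRM014, and in the Chd4-labelled pair all 9 were higher relative to expressed genes, as were 74.8% of all genes and 1325 of 1327 silent genes, and 0 on both scales. Among 14 genes of retinoic acid and Cdx signalling upstream of Hox, Crabp2, which carries retinoic acid to its receptors, was higher on both scales in those libraries, with 199 and 195 counts against 22 and 21 (3.70 relative to expressed genes, adjusted p 1.28e-15, and 1.03 relative to silent genes, adjusted p 0.00371). Rxrb, a retinoid receptor gene, was lower on both (-0.56 relative to expressed genes, adjusted p 0.00295). Each was the only one of the 14 so called, where 1.26% of all genes were higher and 5.52% lower on both scales. The level of Crabp2 over silent genes was 22.2 and 20.5 in the Chd4-labelled pair and 12.6 and 8.66 with the scrambled shRNA. It was 21.8 and 20.2 with DMSO and 25.1 and 22.0 with BRM014, so on this measure the scrambled libraries stood apart. The Cdx genes stood at 0.612 to 1.78 times the silent level, and with BRM014 0 of the 14 were called.

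The genes that silence or open Hox clusters were all active. The 19 Polycomb and Trithorax genes had a median of 18.1 times the silent level, and 19 of 19 were above 2. With BRM014, Rnf2, the ubiquitin ligase of Polycomb complex 1, was higher (0.57, adjusted p 0.0236) and Kmt2a, the Trithorax methyltransferase that keeps Hox genes on, was lower (-0.64, adjusted p 0.00848), each relative to expressed genes and not relative to silent genes. Relative to expressed genes, 0.725% of all genes were called higher with BRM014 and 2.10% lower. In the Chd4-labelled pair Eed (-0.64, adjusted p 2.08e-04) and Phc1 (-0.60, adjusted p 3.21e-04), of Polycomb complexes 2 and 1, were lower on both scales (2 of 19, beside 5.52% of all genes) and 0 were higher on both (1.26%).

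The Hox genes were not alone in lying near the silent level. Over 106 other regulators of development picked by name, most of them homeobox genes, the median was 0.937, and 20 of 106 (Hox, 6 of 39) reached 2 times. The list holds the Dlx, Lhx, Nkx and Pax genes, among others, and Evx1 and Evx2 again. With BRM014 0 of 97 tested were called. In the Chd4-labelled pair 88 of 97 were higher relative to expressed genes (74.8% of all genes), 0 were higher on both scales (1.26%) and 2 were lower on both (5.52%), Gsc (10 and 5 counts against 30 and 30) and Nkx6-2 (16 and 23 against 40 and 54). Markers of other cell types were read in the same way. The 10 fibroblast markers summed to 1.15 to 1.38 times it over the 8 libraries, with 1.31 and 1.38 in the Chd4-labelled pair and 1.27 and 1.31 with the scrambled shRNA, and 0 of them were at 0 counts in all libraries. The 6 primitive endoderm markers summed to 0.957 to 1.52, the 5 mesoderm markers to 1.16 to 2.81, the 6 neural markers to 1.56 to 4.81 and the 5 trophoblast markers to 1.28 to 5.07, each lowest in the Chd4-labelled pair. Against the scrambled shRNA, 25766 of all 35319 genes tested were lower in that pair relative to silent genes. Relative to expressed genes, 6 of 6 primitive endoderm, 5 of 5 mesoderm, 4 of 6 neural and 4 of 5 trophoblast markers were called higher there. Of all genes 74.8% were so called. On both scales Mesp1 of mesoderm and Elf5 of trophoblast were higher there (1.26% of all genes) and Tfap2c, also a germ cell and stem cell gene, was lower (5.52%). The part of other cell types in the Hox values was not tested.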

How the data were processed

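Nascent RNA was read as gene counts in 8 libraries. The authors trimmed reads with Trim Galore 0.6.4 and used STAR 2.7.1a, featureCounts and edgeR 3.32.1 on mm10, per the submitters' processing notes, and the deposited counts are whole reads per gene, not normalized. The strand setting of that counting is not given in the sources used here. The 39 members, all lists and the tests were chosen with earlier results of these data known.

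Fits used edgeR 4.0.16 in R 4.3.3 (glmQLFit and glmQLFTest) over all 8 libraries with no replicate block, for the 35319 genes left by filterByExpr (minimum count 10, minimum total 15); the other 20057 were not tested. P-values were adjusted by Benjamini-Hochberg over all genes tested. Library sizes were taken once from the 8272 expressed genes (at least 10 times the silent level) and once from the silent genes. Levels are counts per kb of the deposited Length, over that of the silent genes. Exact permutation of 2 libraries against 2 cannot go below p = 0.333, so no such test is given. Values per library are given for the 2 members of each cluster with the highest mean level, for members called on both scales and for the 4 with the smallest p in each comparison relative to expressed genes, and up to 3 members of a list by p; other genes were named after their values were seen. DESeq2 1.42.0 was an alternative, beside other scalings, filters, a replicate block and leaving out each library. The code was tested on simulated counts. The scrambled shRNA against DMSO comparison and the crossed block were added after the data were seen. Some results are not reported here, and the 40 ChIP samples were not analysed here. Gene totals of 6982354 to 17128981 counts leave most Hox genes at a mean under 20 counts, and intervals on counts cover counting error only.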

Additional observations from a re-analysis of the deposited data

How the results depend on the processing

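With BRM014, 0 Hox genes were called higher and 0 lower on both scales under every alternative run, and Hoxc13 stayed within the spread of its libraries while its sign changed: relative to expressed genes it was 0.032 with TMM over all tested genes, 0.093 with TMM among the 92 ERCC RNAs, 0.056 without DMSO r2 and 0.077 without BRM014 r2 (-0.12 to 0.077 over the left-out libraries), and relative to silent genes -0.012 without DMSO r1 and -0.052 without BRM014 r1 (-0.052 to 0.29). For the Chd4-labelled pair, the 38 members higher relative to expressed genes became 21 with TMM over all tested genes, 3 with at least 50 counts in at least 2 libraries and 8 with the silent level subtracted, the last 2 of which test fewer genes. Relative to silent genes, 0 were higher and 3 lower by DESeq2 and 0 higher and 1 lower with at least 50 counts, and the count higher on both scales was 0 in each of these. Leaving out single libraries gave 0 to 2 higher relative to silent genes and 0 to 2 on both scales. Relative to expressed genes Hoxc13 turned to -0.39 with TMM over all tested genes. For the scrambled shRNA against DMSO, the 1 lower member became 0 relative to expressed genes and 0 on both scales with each of the 3 ERCC scalings, and 0 relative to silent genes and on both scales with the replicate block and with the 4 libraries alone. Leaving out single libraries gave 0 to 1 there on each. The cause of these changes was not tested. The median Hox level was 1.399 against the median of single silent genes, in place of 1.24.

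With the replicate number as a block, 38 members were higher relative to expressed genes and 1 on both scales in the Chd4-labelled pair, and 0 with BRM014; the Hoxc13 value relative to silent genes in the scrambled libraries was -1.21 (adjusted p 0.0586). Same-numbered libraries correlated at -0.21 (BRM014 and DMSO) and 0.02 (both shRNAs) in their deviations over 8003 genes, so the numbers are not shown to pair them. Crossing the numbers of BRM014 and DMSO called 254 genes higher and 728 lower and 0 Hox genes. Over all genes, the 256 higher and 743 lower with BRM014 became 0 and 2, 10 and 74, and 4 and 37 with the ERCC scalings, 83 and 236 with DESeq2, 103 and 324 with no filter, 97 and 382 with expressed genes at 30 times the silent level, and 47 and 386 at an absolute log2 change of at least 1. Without BRM014 r1 they were 64 and 242, without BRM014 r2 78 and 144, without DMSO r1 85 higher and without DMSO r2 430 higher. The 1951 genes lower in the Chd4-labelled pair became 68, 80 and 80 with the ERCC scalings, 4258 and 1109 with expressed genes at 3 and 30 times, and 293 at an absolute change of at least 1, and the 26411 higher became 7468 with at least 50 counts. Most Hox genes had a mean under 20 counts, so depth limits what could be seen in all but Hoxc13.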
